A study of Mus musculus with 6 samples.

Results

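Npr3 and 7 further genes of natriuretic peptide and cyclic GMP (cGMP) signalling were followed in mouse embryonic fibroblasts (MEFs), 8 of the 26231 genes in the deposited expression table. The members were taken by symbol: the ligand genes Nppb and Nppc, the receptor genes Npr1, Npr2 and Npr3, the cGMP-dependent kinase genes Prkg1 and Prkg2, and the cGMP phosphodiesterase gene Pde5a. They were chosen with the contrast between the lines already known, and Npr3 was chosen because it was far higher in one line, so the differences between the lines are given for the members as a description, without p-values. Where the fit over all genes called a member, that is counted but supports nothing.

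The 6 libraries came from 2 lines, with 3 libraries each, of FVB-strain fibroblasts taken from Nf2 fl/fl embryos aged approximately 14 days by the labels, while the study's methods give a slightly earlier day. Both lines carried the floxed Nf2 alleles (Nf2 encodes Merlin, a tumor suppressor that links the membrane to the cytoskeleton), SV40 large T antigen delivered by lentivirus for immortalization, and a second lentivirus. That second virus was a CMV-GFP vector control in the MEF WT (control) line and a Cre-expressing virus, meant to delete the floxed Nf2 segment, in the MEF Nf2 KO line. Cells were grown with 10% FBS and then held without serum for 24 h before RNA was taken. Each genotype was 1 transduced line, and no source states that the replicates were separate cultures, so p-values measure only the spread between these libraries. Replicates 1, 2 and 3 carried the marks A, B and 2018 in both lines.

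Natriuretic peptides are secreted hormones that act through 3 receptors. NPR-A (Npr1) and NPR-B (Npr2) are membrane guanylyl cyclases that turn peptide binding into cGMP, with NPR-B preferring C-type natriuretic peptide (Nppc), a regulator of growth plate cartilage. NPR-C (Npr3) binds the peptides but has no cyclase domain: it takes them up for degradation and is also known to couple to inhibitory G proteins. Cyclic GMP acts through the kinases PKG I (Prkg1) and PKG II (Prkg2), and PDE5 (Pde5a) hydrolyses it.

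Values are RPKM, read counts scaled to transcript length and to library depth, and differences are on the log2(RPKM + 1) scale, which understates changes of low genes. The deposited values gave inferred depths of 13444273 to 73051295 reads, with replicate 3 the deepest in both lines. Nf2 itself stood at 14.3, 13.7 and 13.1 RPKM in MEF WT and at 15.4, 12.9 and 13.9 RPKM in those labelled MEF Nf2 KO (hereafter the KO-labelled libraries), so the lines overlapped and the difference was 0.03 on the log2 scale (SE 0.10). A value over the whole gene does not show whether a floxed segment was lost, and the label was therefore not checked by it. Of 8 fibroblast markers, 5 exceeded 1 RPKM in every library, with summed levels of 1362 to 1981 RPKM in MEF WT and 1123 to 1551 RPKM in the KO-labelled libraries. Pdgfra, the PDGF receptor alpha gene, was 9.75 ± 3.93 RPKM in MEF WT and 1.01 ± 0.386 RPKM in the KO-labelled libraries (SD, n = 3 each). Dcn, which encodes the matrix proteoglycan decorin, was 2.73 ± 1.21 and 0.0906 ± 0.0563 RPKM in the same order. These 2 passed the test between the lines (limma adjusted p = 0.0329 and 0.0348). Thy1 was 5.92 ± 1.52 and 2.60 ± 0.929 RPKM, past the threshold only with the replicate number as a block (adjusted p = 0.178, and 0.00716 with the block). Col1a1, Col1a2, Pdgfrb and Vim did not pass either way, with Pdgfrb at 23.2 ± 12.2 and 24.2 ± 13.5 RPKM, and Lum stayed under 1 RPKM. In bulk RNA, fewer cells of a type and less RNA per cell cannot be told apart.

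Of the promoter windows, 3 are shown because they belong to the receptor gene with the highest level in the KO-labelled libraries, to Npr2, the highest receptor gene in MEF WT, and to the phosphodiesterase gene of the set. Each runs 5′ to 3′ on the strand of the gene, from 250 bases before to 50 after the RefSeq start, and the single capital marks the start base (RefSeq sequences, build GRCm38.p6). The windows lie at chr15:11907322-11907621 on the minus strand for Npr3, chr4:43631685-43631984 on the plus strand for Npr2 and chr3:122728908-122729207 on the plus strand for Pde5a.
Npr3: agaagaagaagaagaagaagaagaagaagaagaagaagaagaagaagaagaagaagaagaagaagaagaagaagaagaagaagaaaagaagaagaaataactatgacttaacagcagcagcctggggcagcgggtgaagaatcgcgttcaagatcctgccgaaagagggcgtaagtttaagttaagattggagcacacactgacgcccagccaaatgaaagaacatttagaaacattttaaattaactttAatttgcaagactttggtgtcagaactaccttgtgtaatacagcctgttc
Npr2: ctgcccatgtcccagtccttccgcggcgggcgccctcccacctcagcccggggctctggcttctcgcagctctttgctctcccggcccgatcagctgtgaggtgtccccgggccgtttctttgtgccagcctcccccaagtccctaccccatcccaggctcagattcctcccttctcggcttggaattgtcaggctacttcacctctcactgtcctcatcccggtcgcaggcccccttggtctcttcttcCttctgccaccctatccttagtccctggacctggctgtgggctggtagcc
Pde5a: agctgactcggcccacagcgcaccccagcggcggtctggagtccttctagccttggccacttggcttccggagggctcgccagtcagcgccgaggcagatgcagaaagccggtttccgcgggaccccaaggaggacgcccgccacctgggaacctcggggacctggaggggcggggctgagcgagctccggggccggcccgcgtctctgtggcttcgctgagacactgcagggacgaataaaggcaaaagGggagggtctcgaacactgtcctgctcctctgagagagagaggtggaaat

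The Npr3 window opened with an uninterrupted GAA repeat of 84 bases. Its GC content was 39.0%, at percentile 8.4 of all RefSeq windows, duplicates included. The median over the 32544 distinct windows of 300 bases was 53.0%. The Npr2 window had 64.0% GC and the Pde5a window 66.3%. The RefSeq start of Npr3 lay 84 bases upstream of its 5′ start in GENCODE, and that of Pde5a lay 211 bases inside the GENCODE gene. Windows were found for 7 of the 8 members, 2 of them for Prkg1, and none for Prkg2. Both strands were searched for the TEAD motif GGAATG, the AP-1 motif TGANTCA and the CRE motif TGACGTCA. These occur in 14.6%, 7.8% and 1.8% of the distinct windows, and none of the 3 motifs is contained in another. The only match among the members was GGAATG in Nppb, at positions -105 to -100 from its start. A window without a match says only that these letters are not in it.

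Both ligand genes were at the edge of detection. Nppb (B-type natriuretic peptide, a hormone best known from the heart; chromosome 4, 147985788 to 147987205) was 0.190, 0.743 and 0.167 RPKM in MEF WT. It was listed at 0 in replicate 1 of the KO-labelled libraries, where 3 reads would have given 0.213 RPKM, and was 0.398 and 0.0701 RPKM in replicates 2 and 3. These values rest on 0 to 11 reads per library, and the lines overlapped, with replicate 2 the highest library in each line. Within same-numbered pairs the KO-labelled library was the lower in all 3, by log2 differences of -0.25, -0.32 and -0.13.

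Nppc (chromosome 1, 86666291 to 86670571) was 0.143, 0.0506 and 0.251 RPKM in MEF WT and 0.0531, 0.0995 and 0.0394 RPKM in the KO-labelled libraries, from 1 to 16 reads. The lines overlapped here too, and neither ligand reached 1 RPKM in any library, so neither entered the fit across genes. Within same-numbered pairs the log2 differences of Nppc were -0.12, 0.07 and -0.27, with mixed signs. Read numbers this low did not allow a difference in ligand transcripts to be measured.

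Npr3 was the member that stood furthest apart (ENSMUSG00000022206, minus strand of chromosome 15, 11839896 to 11907287, mm10). Its level was 9.53, 11.3 and 10.7 RPKM in MEF WT and 78.0, 54.7 and 73.2 RPKM in the KO-labelled libraries. Every library of the second line was above every library of the first, and the MEF WT libraries spread much less than the others. The means were 10.5 ± 0.920 and 68.6 ± 12.3 RPKM (SD, n = 3 each), a 6.53-fold ratio, with a log2 difference of 2.58 (SE 0.15). Within same-numbered replicates the ratio was 8.19, 4.82 and 6.86, lowest in replicate 2. At least 1202 reads lay behind each value. Ranked by log2 difference, Npr3 was number 2 of 11067 genes that passed the filter of at least 1 RPKM in at least 3 libraries.

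Npr2 did not share this pattern. Its level was 20.1, 18.1 and 22.1 RPKM in MEF WT and 23.0, 19.5 and 19.2 RPKM in the KO-labelled libraries (chromosome 4, 43631935 to 43651244). The ranges overlapped almost wholly, the log2 difference was 0.03 (SE 0.12), and the same-numbered differences were 0.18, 0.10 and -0.20, with mixed signs. Npr2 thus had at least 1263 reads in each library and a difference no larger than its spread between replicates.

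Npr1, the cyclase receptor of the atrial and B-type peptides (chromosome 3, 90450591 to 90465866), stayed under 1 RPKM throughout. It was 0.745, 0.430 and 0.410 RPKM in MEF WT and 0.578, 0.293 and 0.435 RPKM in the KO-labelled libraries, from 27 to 152 reads, and the lines overlapped. Of the summed RPKM of the cyclase receptors, Npr2 made up 97.4% ± 0.902 in MEF WT and 98.0% ± 0.508 in the KO-labelled libraries (SD, n = 3 each).

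**Figure D1:**
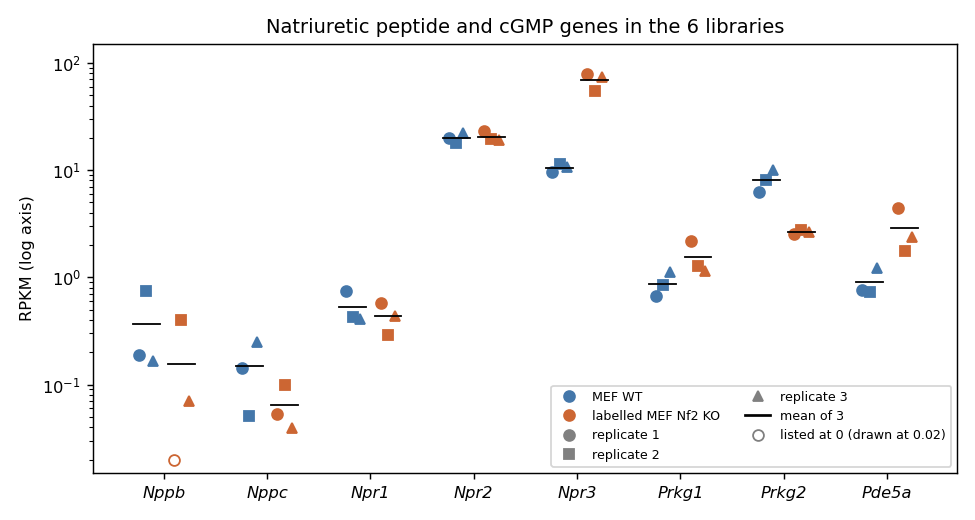
RPKM (log axis) of the 8 genes in the 6 libraries, with the MEF WT libraries in blue, the KO-labelled libraries in orange, the replicate number by symbol and the mean of 3 libraries as a line; the open symbol is the value of Nppb listed at 0. Npr3 sits at 9.53 to 11.3 RPKM in MEF WT and at 54.7 to 78.0 RPKM in the other line, while Npr2 lies near 20 RPKM in both.

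The receptor balance moved with Npr3. Npr3 made up 31.3%, 38.0% and 32.1% of the summed RPKM of the 3 receptor genes in MEF WT, and 76.8%, 73.4% and 78.8% in the KO-labelled libraries. The shares of the lines did not overlap and lay close together within each line. Npr2 was thus the highest receptor transcript in all 3 MEF WT libraries, and Npr3 was the highest in all 3 libraries labelled MEF Nf2 KO. The ratio of Npr3 to Npr2 was 0.473, 0.628 and 0.482 in MEF WT and 3.40, 2.81 and 3.81 in the other line. The summed receptor level was 31.2 ± 1.82 RPKM in MEF WT and 89.6 ± 13.9 RPKM in the KO-labelled libraries (SD, n = 3 each). These ratios compare transcripts per length within a library and say nothing of receptor protein.

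**Figure D2:**
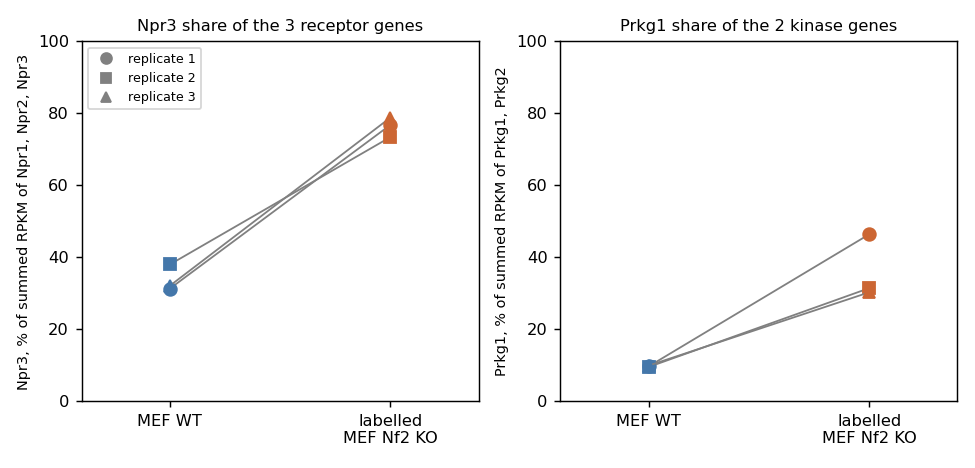
Left, Npr3 as a percentage of the summed RPKM of Npr1, Npr2 and Npr3; right, Prkg1 as a percentage of the summed RPKM of Prkg1 and Prkg2. Each symbol is a library and lines join same-numbered replicates: the Npr3 share is 31.3% to 38.0% in MEF WT and 73.4% to 78.8% in the KO-labelled libraries, and the Prkg1 share is 9.55% to 9.94% and 30.3% to 46.4%.

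Of the kinase genes, Prkg2 was lower in every KO-labelled library, whereas the values of Prkg1 were low and its pairs uneven. Prkg2 encodes PKG II, a membrane-anchored kinase that acts after C-type peptide signalling in cartilage (chromosome 5, 98929773 to 99037351). It was 6.20, 8.004 and 10.1 RPKM in MEF WT and 2.51, 2.75 and 2.66 RPKM in the KO-labelled libraries. All 3 libraries of the second line were below all 3 of the first, and they lay within a narrow range where the MEF WT libraries did not. The means were 8.09 ± 1.93 and 2.64 ± 0.121 RPKM (SD, n = 3 each), 3.06-fold higher in MEF WT, with a log2 difference of -1.30 (SE 0.16) and same-numbered differences of -1.04, -1.26 and -1.59.

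Prkg1 encodes PKG I, the cytosolic kinase of smooth muscle and platelets (chromosome 19, 30564489 to 31765033). It was 0.667, 0.845 and 1.11 RPKM in MEF WT and 2.18, 1.26 and 1.16 RPKM in the KO-labelled libraries. The lines did not overlap, but replicate 3 of MEF WT and replicate 3 of the other line were nearly equal, and the same-numbered differences of 0.93, 0.29 and 0.03 on the log2 scale were uneven. The mean log2 difference was 0.42 (SE 0.18). It was 0.24 without replicate 1 of the KO-labelled libraries and 0.16 without replicate 1 of both lines, below the SE of the estimate from all 6 libraries.

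Summed over both kinase genes, the level was 8.96 ± 2.15 RPKM in MEF WT and 4.17 ± 0.455 RPKM in the KO-labelled libraries (SD, n = 3 each). Prkg1 made up 9.71%, 9.55% and 9.94% of that sum in MEF WT and 46.4%, 31.5% and 30.3% in the other line. This share also rises when Prkg2 falls. In the replicate 3 pair Prkg1 was 1.11 and 1.16 RPKM, while Prkg2 was 10.1 and 2.66 RPKM. Prkg2 remained the larger of the pair in every library. Smooth muscle markers differed most between replicate numbers, and Acta2 was higher in the KO-labelled library of each pair. The summed level of 5 markers was 455, 2451 and 729.5 RPKM in MEF WT and 784, 2803 and 1142 RPKM in the KO-labelled libraries, higher in the second line in all 3 pairs, with most of it from Acta2. Acta2, the smooth muscle actin gene, was 302, 1625 and 501 RPKM and then 625, 2066 and 851 RPKM, a log2 difference of 0.72 (SE 0.69, limma adjusted p = 0.906, and 0.0487 with the block). Tagln had means of 399 and 393 RPKM and Cnn1 of 2.66 and 2.40 RPKM, both were lower in the KO-labelled library of the replicate 2 pair, neither passed the test with or without the block, and the defining marker Myh11 stayed under 0.05 RPKM. The part of these markers in the difference of Prkg1 was not tested.

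Pde5a, the target of sildenafil (chromosome 3, 122728947 to 122859374), was 0.763, 0.724 and 1.21 RPKM in MEF WT and 4.46, 1.77 and 2.39 RPKM in the KO-labelled libraries. The lines did not overlap, and replicate 1 of the second line stood well above the other two. The means were 0.900 ± 0.272 and 2.87 ± 1.41 RPKM (SD, n = 3 each), a 3.19-fold ratio, with a log2 difference of 0.98 (SE 0.26) and same-numbered differences of 1.63, 0.68 and 0.62. Pde5a and Prkg1 each reached 1 RPKM in only 1 MEF WT library, so both passed the filter through the line in which they were higher.

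**Figure D3:**
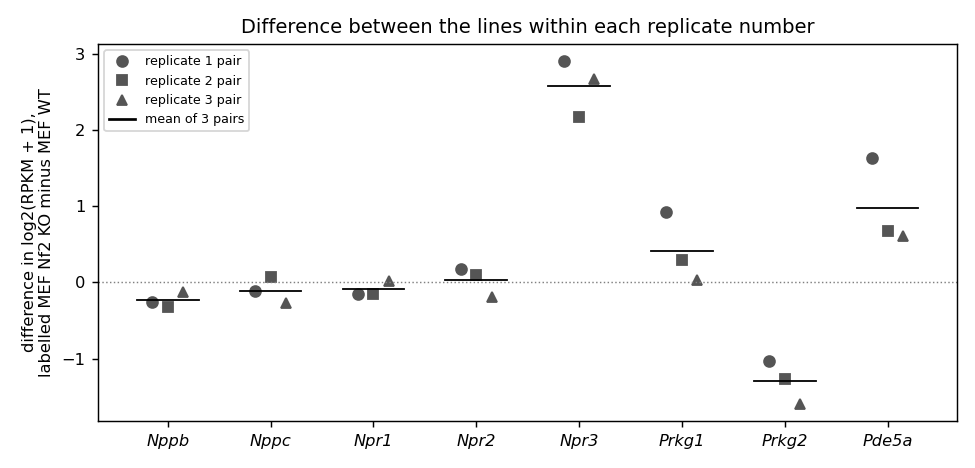
Difference in log2(RPKM + 1) between the library labelled MEF Nf2 KO and the MEF WT library of the same replicate number, for the 8 genes; symbols are the 3 replicate pairs and lines their means. Npr3 (2.17 to 2.91) and Pde5a (0.62 to 1.63) lie above 0 in all 3 pairs and Prkg2 (-1.59 to -1.04) lies below 0, while Npr2 straddles it.

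Across all genes, limma on log2(RPKM + 1) called 1.06% of the 11067 tested genes between the lines at an adjusted p under 0.05, with 0.479% above and 0.578% below MEF WT in the KO-labelled libraries. Of the 8 members, 5 passed the filter and 2 were among these calls, Npr3 on the higher and Prkg2 on the lower side. The same 2 were called with the replicate number as a block, where the shares over all tested genes were 2.99% higher and 4.54% lower. The lines did not overlap for 4 of the 5, against 15.1% of all tested genes (7.6% higher and 7.52% lower in the KO-labelled libraries), and all 3 pairs pointed one way for 4, against 46.9% of all tested genes (22.3% higher and 24.6% lower). As the genes were chosen on this contrast, and 2 of the 5 passed the filter through the higher line, nothing is read from these counts. The call of Prkg2 was lost without the filter and without any one of 3 libraries: replicate 3 of MEF WT (log2 difference -1.14), replicate 1 of the KO-labelled libraries (-1.27) or replicate 3 of the KO-labelled libraries (-1.30). Without replicate 1 of both lines, or without replicate 3 of both lines, limma called 0 genes, so neither member was called, with 578 and 556 genes under an unadjusted p of 0.05.

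The level order of the members differed in places between the lines. In MEF WT it ran Npr2, Npr3, Prkg2, Pde5a, Prkg1, Npr1, Nppb and Nppc. Npr2 lay above Npr3, and Prkg2 above Pde5a, without overlap, whereas the ranges of Npr3 (9.53 to 11.3 RPKM) and Prkg2 (6.20 to 10.1 RPKM) overlapped, as did each neighbouring pair from Pde5a downwards. In the KO-labelled libraries the order was Npr3, Npr2, Pde5a, Prkg2, Prkg1, Npr1, Nppb and Nppc. Pde5a (1.77 to 4.46 RPKM) and Prkg2 (2.51 to 2.75 RPKM) overlapped there, as did Npr1 with Nppb and Nppb with Nppc, and the remaining neighbours did not.

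The replicate number gave a contrast that the choice of members had not used. With the line as a covariate, limma's F test of the replicate number called 21.2% of the tested genes at an adjusted p under 0.05, and 0 of the 5 tested members. None of the 5 was under an unadjusted p of 0.05 either. With only 5 members a count of 0 cannot be told from a share of 21.2%, so nothing is read from it. Prkg1 and Pde5a had also passed the filter through the KO-labelled line, and their low MEF WT levels lay where the scale understates changes. The adjusted p was 0.701 for Npr3, 0.403 for Npr2, 0.799 for Prkg1, 0.231 for Prkg2 and 0.340 for Pde5a. For Npr3 the estimated difference of replicate 2 from replicate 1 was -0.14 and that of replicate 3 from replicate 1 was 0.03 on the log2 scale, against 2.58 between the lines. The estimate for replicate 2 averages opposite movements. Npr3 was higher in replicate 2 than in replicate 1 of MEF WT (11.3 and 9.53 RPKM). In the KO-labelled libraries it was lower in replicate 2 (54.7 and 78.0 RPKM). Pde5a was lower in replicate 2 than in replicate 1 by an estimated -0.51. This difference was -0.997 without replicate 1 of MEF WT and -0.0156 without replicate 1 of the KO-labelled libraries. In each of these fits a single library stood for replicate 1.

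The genes closest to Npr3 over the 6 libraries were Arxes1, Bex1, Tgm2, Sema3d and Rgs4. Likeness was the root mean square difference between the deviations of each gene from its own mean, on the log2(RPKM + 1) scale. It was 0.268 for Arxes1 and 0.362 to 0.393 for the other 4, against a median of 1.31 over all other tested genes. The measure takes in the difference between the lines on which Npr3 was chosen, so a close gene shares that difference by construction. These 5 genes were picked for a profile like that of Npr3, replicate 2 included, so nothing is read from the likeness. Arxes1, Bex1 and Sema3d were under 1 RPKM in every MEF WT library, so they passed the filter through the KO-labelled libraries. Arxes1 was 0.0668, 0.564 and 0.450 RPKM in MEF WT and 4.71, 4.52 and 6.23 RPKM in the KO-labelled libraries. Tgm2, the gene of tissue transglutaminase, was 3.16, 4.14 and 2.81 RPKM and then 19.9, 9.59 and 24.3 RPKM. Rgs4, which encodes an activator of G protein GTPase activity, was 1.15, 0.732 and 1.68 RPKM and then 11.3, 4.57 and 9.32 RPKM. Like Npr3, Tgm2 and Rgs4 had replicate 2 as the lowest of the KO-labelled libraries, and Arxes1 did as well. Among the members, Pde5a had a value of 0.834 and Prkg2 1.95, neither as close as these 5.

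The wider cGMP pathway was measured through a list of 61 genes without the members, of which 54 were in the table and 22 passed the filter. Between the lines, 1 of the 22 passed the test, 4.55% against 1.06% of all tested genes, and 4 were under an unadjusted p of 0.05. The signs were divided, with 12 differences above and 10 below 0 and a median of 0.10, against -0.01 over all genes. With the replicate number as a block, 3 of the 22 passed, 13.6% against 7.53% of all tested genes.

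All 3 of those genes encode phosphodiesterases that act on cyclic AMP rather than cGMP. Pde8a, a high-affinity cyclic AMP phosphodiesterase, was 3.23, 3.96 and 4.34 RPKM in MEF WT and 1.39, 0.705 and 1.44 RPKM in the KO-labelled libraries. The lines were far apart, and Pde8a fell by 1.16 on the log2 scale (SE 0.18, limma adjusted p = 0.0421, and 0.0132 with the block). The call was kept without replicate 2 of the KO-labelled libraries (adjusted p = 0.0452) and lost without any other single library, with adjusted p from 0.0673 to 0.174. Pde4a had means of 3.73 ± 0.268 and 2.60 ± 0.169 RPKM (SD, n = 3 each), a log2 difference of -0.39 with an adjusted p of 0.174 in limma and 0.0282 with the block. Pde7a had means of 5.43 ± 1.23 and 7.42 ± 1.81 RPKM, with overlapping lines, a log2 difference of 0.38 and an adjusted p of 0.688, or 0.0350 with the block. Of the other phosphodiesterases, 4 more passed the filter and 14 did not, and the highest level was that of Pde6d, a prenyl-binding protein grouped with the photoreceptor enzyme, at 14.6 and 13.8 RPKM.

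**Figure D4:**
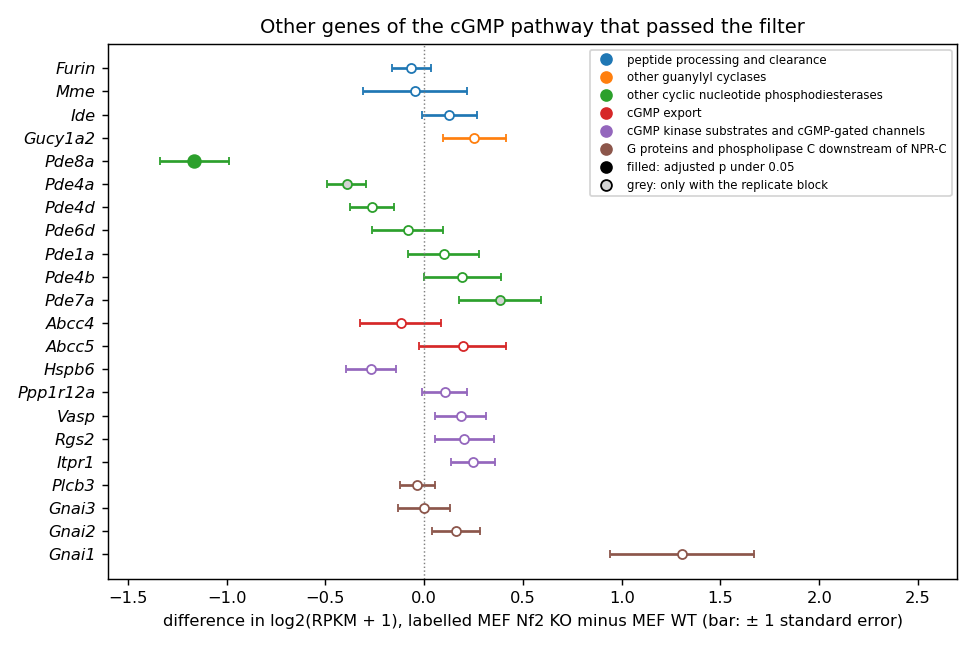
Difference in log2(RPKM + 1), libraries labelled MEF Nf2 KO minus MEF WT, for the 22 pathway genes that passed the filter, coloured by group, with bars of 1 standard error. Pde8a (-1.16) is the filled point, past the threshold; Pde4a and Pde7a, in grey, passed only with the replicate block; Gnai1 (1.31) has the widest bar.

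Other sources of cGMP were scarce in both lines. Soluble guanylyl cyclase, the nitric oxide receptor, is a dimer of an alpha and a beta chain, and the alpha chain gene Gucy1a2 was 1.05 ± 0.191 and 1.46 ± 0.447 RPKM (log2 difference 0.25, limma adjusted p = 0.759). No other guanylyl cyclase gene of the list that was in the table exceeded 0.0457 RPKM in any library, the beta chain gene Gucy1b1 included, and the 3 nitric oxide synthase genes did not exceed 0.120 RPKM. Npr2 was therefore the guanylyl cyclase gene with the highest level in all 6 libraries.

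Peptide processing and clearance was represented by Furin, Mme and Ide, of which 0 of 3 passed the test. Ide, the insulin-degrading enzyme, which also cleaves natriuretic peptides, had the highest level at 13.7 and 15.1 RPKM. Mme, the gene of neprilysin, was 1.58 ± 0.674 and 1.51 ± 0.734 RPKM. The export pumps Abcc4 and Abcc5 gave 0 of 2, and Abcc5 was the higher at 13.3 ± 2.08 and 15.7 ± 4.97 RPKM.

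Kinase substrates and cGMP-gated channels gave 0 of 5. The highest was Vasp, a cytoskeletal PKG substrate, at 22.3 ± 2.27 and 25.5 ± 3.27 RPKM (log2 difference 0.18, adjusted p = 0.812), and the smooth muscle substrates Kcnma1 and Pln were near 0 in every library. Of the G protein and phospholipase C genes downstream of NPR-C, 0 of 4 passed the test. Gnai2 was the highest at 119 ± 14.7 and 132 ± 8.95 RPKM, with a log2 difference of 0.16 (adjusted p = 0.840). Gnai1, an inhibitory G protein alpha subunit singled out here after its values were seen, was 5.26, 15.7 and 6.69 RPKM in MEF WT and 25.3, 24.0 and 17.5 RPKM in the KO-labelled libraries. Its lines did not overlap, but replicate 2 of MEF WT came close, and the log2 difference of 1.31 (SE 0.36) did not pass the test (limma adjusted p = 0.233, and 0.0501 with the block). Without replicate 2 of MEF WT it did pass, with a log2 difference of 1.73 and an adjusted p of 0.0174, and Pde8a then did not. Without replicate 2 of both lines, Gnai1 (1.67, adjusted p = 0.00907) and Pde8a (adjusted p = 0.0143) both passed.

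Markers of other cell types were read from the same libraries. Ptprc and Adgre1 (macrophages), Pecam1 (endothelium), Myh6 and Actn2 (cardiomyocytes), Acan (cartilage), Cdh1 (epithelium) and Sox10 (glia) were each under 0.05 RPKM in every library. Other markers of these lists exceeded 1 RPKM in every library. Kdr (endothelium) ranged from 1.32 to 4.39 RPKM, Tnnt2 (cardiomyocytes) from 1.75 to 4.58 RPKM and Sox9 (cartilage) from 5.79 to 18.9 RPKM. Col2a1 (cartilage) had means of 2.56 RPKM in MEF WT and 1.28 RPKM in the KO-labelled libraries. Kdr, Tnnt2, Sox9 and Col2a1 did not pass the test between the lines, with or without the block. Summed levels in MEF WT and in the KO-labelled libraries ranged from 1.46 to 3.89 and from 1.50 to 4.45 RPKM for 4 endothelial markers, and from 2.04 to 4.55 and from 1.75 to 4.62 RPKM for 4 cardiomyocyte markers. They ranged from 7.78 to 14.3 and from 7.72 to 20.2 RPKM for 4 chondrocyte markers, and from 6.58 to 8.22 and from 5.20 to 7.38 RPKM for 4 macrophage markers, most of the latter from Cd68. The epithelial and glial sums stayed under 1 RPKM. The ranges of the lines overlapped for every one of these lists. The part of the lower Pdgfra, Dcn and Thy1 in the difference of Npr3 was not tested.

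Gm5144, a noncoding gene on the opposite strand that overlaps the start of Npr3 (chromosome 15, 11906519 to 11907464) and was chosen after its values were seen, was 0.628, 0.502 and 0.593 RPKM in MEF WT and 2.57, 1.15 and 2.31 RPKM in the KO-labelled libraries. The lines did not overlap, and replicate 2 was the lowest library in each, as it was for Npr3 in the second line only. The log2 difference was 0.90 (SE 0.20), with a limma adjusted p of 0.138, and 0.0229 with the block. Gm5144 was under 1 RPKM in every MEF WT library and passed the filter through the KO-labelled line, so these p-values support nothing. Of the 31-base stretches of Gm5144, 28.1% are Npr3 sequence on the opposite strand. No source states whether reads were counted by strand, so reads of Gm5144 and Npr3 cannot be told apart in that stretch. In the other direction 3.04% of the stretches of Npr3 are shared with genes on the opposite strand and 0.244% with genes on the same strand. The opposite-strand share was 9.22% for Npr1 and 5.22% for Npr2, and on the same strand no member shared more than 2.03%, the value of Pde5a. Within 500 kb, Sub1 was 20.6 ± 1.70 and 31.5 ± 3.14 RPKM (limma adjusted p = 0.0831, and 0.0132 with the block). Adamts12 was 1.36 ± 1.16 and 3.00 ± 0.684 RPKM (SD, n = 3 each), with overlapping lines, as replicate 2 of MEF WT stood at 2.67 RPKM (adjusted p = 0.446, and 0.0485 with the block). The other neighbours in the fit, Zfr, Golph3, Mtmr12 and Tars, had log2 differences of -0.04 to 0.18 and did not pass with or without the block.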

How the data were processed

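RNA from 3 libraries of each line was sequenced by a commercial service, and the authors deposited 1 table of values per gene, already scaled by gene length and library depth and taken from their scale as RPKM; the aligner, counter and annotation are not given in the sources used here, and the submitters' processing notes name mm10. Depth was inferred from the table with GENCODE exon lengths, as the number of reads at which low values become whole reads: 86.1% to 87.6% of values of up to 20 reads came within 0.1 of a whole number, against 20% by chance, so read numbers are estimates.

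The 11067 of 26231 genes that reached 1 RPKM in 3 or more libraries were fitted with limma 3.58.1 in R 4.3.3 on log2(RPKM + 1), unpaired, with trended and robust variances, two-sided tests and Benjamini-Hochberg adjustment at 0.05, and the fit was tested on simulated data. The same fit with the line as a covariate gave an F test of the replicate number. Same-numbered libraries deviated together from their line means (Pearson r across genes, which are not independent, of 0.552, 0.819 and 0.516), so a second fit blocked on that number was run. Because the values are not counts, no count model was used; voom on the recovered reads was an alternative, as were a pseudocount of 0.1 RPKM, no filter, a filter of 5 RPKM, quantile normalization, median centring, plain variances and leaving out libraries. The members and lists were chosen with earlier results of these data known. Named genes were every member, Nf2, the pathway genes past the threshold with or without the block, the highest gene of each pathway group and the 5 genes most like Npr3; all other genes in the text, among them Gm5144 and its neighbours, Gnai1 and single markers or pathway genes, were named after their values were seen. Sequence shared between genes was counted as 31-base stretches of annotated exons.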

Additional observations from a re-analysis of the deposited data

How the results depend on the processing

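Npr3 kept its direction under all 17 alternatives, with log2 differences of 2.42 to 2.79. Prkg2 and Pde5a kept theirs, and they were -1.55 and 1.50 with a pseudocount of 0.1 RPKM and -1.64 and 1.42 with voom on recovered reads; Prkg1 was 0.72, Nppb -0.98 and Nppc -0.53 with that pseudocount, which weighs low values more by its construction. Leaving out libraries moved Prkg1 between 0.16 and 0.61 and the log2 ratio of Npr3 to the sum of Npr1 and Npr2 between 2.41 and 2.80, against 2.56 over all libraries. Pde5a was 0.65 without replicate 1 of both lines. The pathway list had 1 gene past the threshold, 0 with a pseudocount of 0.1 RPKM, without a filter or with a filter of 5 RPKM (3, 10 and 1 genes under an unadjusted p of 0.05), 3 with the replicate block, and 0 to 2 when libraries were left out, where the called gene was Gnai1 in place of Pde8a without replicate 2 of MEF WT. Pde8a, which the 5 RPKM filter removes, had a log2 difference of -1.67 (adjusted p = 0.0620) with the smaller pseudocount and an adjusted p of 0.149 without a filter. Over all genes, 117 passed, against 9 without a filter, 63 with a filter of 5 RPKM, 833 with the replicate block and 0 to 484 when libraries were left out. Replicate number gave 2347 genes, against 0 without a filter (5077 under an unadjusted p of 0.05) and 212 to 2037 when libraries were left out, with 0 to 1 of the members; the cause of these changes was not tested. The members were chosen on the contrast between the lines, so their calls in it support nothing: the block changed none, that of Prkg2 was lost without a filter and in some fits without a library, and those of Npr3 and Prkg2 were lost without replicate 1 or replicate 3 of both lines. With 3 libraries a line and 1 to 16 reads for Nppc and at most 11 for Nppb, differences in the ligand genes could not be measured.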
